A study of Mus musculus with 24 samples.

Results

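The low-Ins2 libraries were 4 of the 8 β-cell libraries from offspring of mothers fed a low-protein diet (LPD). They were chosen by a measured value, the count of Ins2 divided by the count of Ins1, with a limit of 0.7. LPD female 1, female 2, female 3 and male 4 lay below the limit and formed the low-Ins2 group, whereas LPD female 4, male 1, male 2 and male 3 lay above it and are called the other LPD libraries. The whole series held 24 libraries, 4 for each of 3 maternal diets and each sex. Because Ins2 and Ins1 counts chose the groups, every difference between them is given as a description with no test, and it shows only how these 8 libraries differed.

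The mothers were CD1 females about 7 weeks old that ate the LPD, a diet high in fat (HFD) or the control diet (ND) for 2 weeks before they were mated with Ins1Apple males. All offspring ate the control diet from birth, and islets were isolated at an age of about 7 weeks. The islets were dispersed, and β cells were sorted by flow cytometry on Apple, the fluorescent protein of the Ins1Apple allele. The labels give the genotype Ins1Apple for every library, the ND ones included, so that no library without the allele was compared. The labels name no litter, dam or pool, and p-values below measure only the spread between these samples. The low-Ins2 group held 3 female and 1 male libraries and the other LPD group 1 female and 3 male libraries, and genes on chromosomes X and Y were therefore left out of the description. Diets and sexes follow the column names of the deposited tables. Library numbers written above those names place all 24 columns in another diet, and by number the 8 LPD columns would be the HFD libraries of the same sex. By number the 8 ND columns would be LPD libraries of the other sex, so statements on ND females and ND males hold for the column names only. The split itself is the same under either reading, but the diet it belongs to is not.

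The mouse carries a pair of non-allelic insulin genes. Ins2 is the ancestral gene, shared in structure with other mammals, while Ins1 is a rodent retrocopy that has lost an intron. Both encode preproinsulin, which β cells cut to insulin and C-peptide in the secretory pathway and release in response to glucose. Pdx1 and Mafa are among the factors that bind both promoters.

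The coding sequences show how far reads from the insulin genes can be told apart. Ins1 lies on chromosome 19 at chr19:52264297-52265476 on the plus strand and Ins2 on chromosome 7 at chr7:142678659-142679726 on the minus strand (GRCm38, transcripts Ins1-201 and Ins2-201). The first 120 coding bases of each are printed with capitals at the bases that differ from the other gene.
Ins1: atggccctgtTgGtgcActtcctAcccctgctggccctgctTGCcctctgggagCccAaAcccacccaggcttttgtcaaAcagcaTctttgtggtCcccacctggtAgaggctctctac
Ins2: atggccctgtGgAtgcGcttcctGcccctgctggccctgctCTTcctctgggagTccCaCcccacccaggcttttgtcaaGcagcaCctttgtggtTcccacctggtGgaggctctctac
Over the whole coding sequence 301 of 330 alignment columns were identical (91.2%) and 29 differed. The longest run that the coding sequences share is 54 bases, at the end of the A chain.
Shared run: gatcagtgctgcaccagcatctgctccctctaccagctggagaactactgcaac
Of the 50-base windows of the Ins1 coding sequence, 5 of 275 (1.82%) also occur in Ins2, and of the 100-base windows 0 of 225 do. The sources used here do not give how reads matching both genes were counted.

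The ratio of Ins2 to Ins1 counts was 0.317, 0.316, 0.562 and 0.219 in LPD female 1, female 2, female 3 and male 4. In the other LPD libraries it was 0.955 in female 4 and 0.941, 0.989 and 0.951 in males 1, 2 and 3. The low-Ins2 library closest to the limit was LPD female 3 at 0.562 and the other library closest to it was LPD male 1 at 0.941, so that no LPD library lay between these values. The ratio ranged between 0.946 and 1.10 in the 8 HFD libraries and between 0.982 and 1.16 in the 8 ND libraries. The other LPD libraries thus lay at the lower end of the HFD and ND values, and the low-Ins2 libraries lay apart from all 20 remaining libraries.

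**Figure D1:**
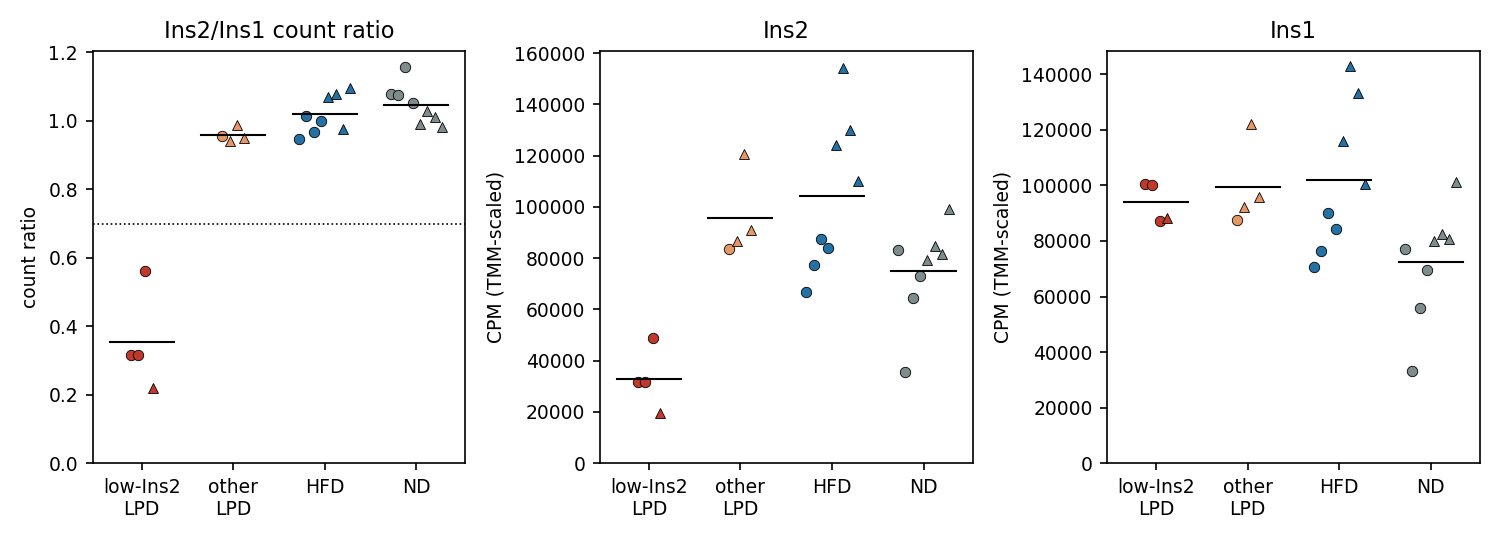
Ratio of Ins2 to Ins1 counts (left, dotted line at the limit of 0.7) and Ins2 and Ins1 levels in TMM-scaled CPM, defined in the text, for the low-Ins2 LPD, other LPD, HFD and ND libraries. Circles are female libraries, triangles male libraries and horizontal lines group means. The 4 low-Ins2 libraries sit at 0.219 to 0.562 and every other library at 0.941 or above, while Ins1 overlaps between the LPD groups.

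The lower ratio came with lower Ins2 and overlapping Ins1. Ins2 stood at 31818, 31635, 48967 and 19386 CPM in LPD female 1, female 2, female 3 and male 4, against 83615 CPM in LPD female 4 and 86828, 120835 and 91021 CPM in LPD males 1, 2 and 3. CPM here are counts per 1000000 counts of the library after scaling by TMM, a method that adjusts library totals for composition. The groups did not overlap, and mean Ins2 was 32951 ± 12159 CPM in the low-Ins2 libraries and 95575 ± 17111 CPM in the other LPD libraries (SD, n = 4 each). Ins1 stood at 100408, 100049, 87096 and 88427 CPM in the low-Ins2 libraries and at 87604, 92304, 122187 and 95710 CPM in LPD female 4 and males 1, 2 and 3. The Ins1 values overlapped, and the mean difference in log2(CPM + 0.5), low-Ins2 minus other, was −0.07 for Ins1 and −1.60 for Ins2.

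Ins2 in the low-Ins2 group was itself uneven. As a share of the mean of the other LPD libraries, Ins2 was 33.3%, 33.1% and 51.2% in females 1, 2 and 3 and 20.3% in male 4. The ND libraries ranged between 35614 and 99276 CPM for Ins2, so that LPD female 3 fell within the ND range and the remaining low-Ins2 libraries below it. The ND library with the least Ins2 also had the least Ins1, and its ratio was 1.08. Ins1 and Ins2 together made up 13.6%, 13.5%, 14.0% and 11.3% of all counts in the low-Ins2 libraries and 16.9%, 17.0%, 22.6% and 17.3% in the other LPD libraries. The widest 95% Wilson interval of these shares spanned 0.0361 percentage points and covers counting error only.

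Depth overlapped between the LPD groups. Totals were 16656151 to 25116855 counts in the low-Ins2 libraries and 20671811 to 25036536 in the other LPD libraries, within 12433228 to 26375565 over all 24. The low-Ins2 libraries had 20278 to 24707 detected genes and the other LPD libraries 19160 to 23930, whereas some HFD libraries had as few as 13225. Mitochondrially encoded transcripts took 0.556% to 0.642% of counts in the low-Ins2 libraries and 0.460% to 0.773% in the other LPD libraries. At these depths 3 counts in an LPD library corresponded to 0.119 to 0.18 CPM.

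Of 33619 genes, 14352 autosomal and mitochondrial genes reached 1 CPM in at least 4 of the 8 LPD libraries. In 669 of them (4.66%) all 4 low-Ins2 values lay above all 4 other LPD values, and in 681 (4.74%) all lay below. Requiring also a mean log2 difference of at least 1 left 111 higher genes (0.773%) and 73 lower genes (0.509%). Since Ins2 and Ins1 counts chose the groups, nothing further is read from these shares. The balance of directions depended on scaling. With CPM of the library total, the median difference over all genes moved by 0.116, from the −0.02 found with TMM, and the non-overlapping genes became 1337 higher and 265 lower. With that scaling the genes also at least 2-fold apart became 155 higher and 60 lower, so that the higher ones were 72.1%, against 60.3% with TMM. Without LPD female 4 the count was 265 higher and 108 lower, and 178 of the 184 genes were among them.

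The 111 higher genes were mostly low in level, with a median of 2.93 CPM, and 65 were protein coding. Among the 73 lower genes the median was 7.76 CPM and 62 were protein coding, and of all described genes 81.1% were. Since each sex had libraries in both groups, the size of the differences could be read within sex. Their direction could not, because genes chosen for values without overlap must differ the same way in each sex. LPD female 4 was the only female of the other LPD libraries, and LPD male 4 the only male of the low-Ins2 libraries. The counts among females thus rest on LPD female 4 and those among males on LPD male 4. The part of sex was not tested. Of the higher genes 46 differed at least 2-fold among females, 97 among males and 34 in both. Of the lower genes 52 differed at least 2-fold among females, 44 among males and 26 in both. LPD female 4 was the other LPD library nearest to the low-Ins2 values for 65 of the 111 higher and 36 of the 73 lower genes. Among the low-Ins2 libraries, LPD female 3 was the nearest to the others for 50 of the higher and 40 of the lower genes. Female 3 and female 4 thus held the inner positions most often, as they did for Ins2 itself.

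The lower genes fell into different orders among the low-Ins2 libraries, so that they did not form one graded series with Ins2. In 23 of the 73 genes, Ins2 among them, male 4 was lowest and female 3 highest of the 4. In another 23, females 1 and 2 were lowest and male 4 highest, and 20 of these were genes of pancreatic acinar cells. In 12 genes females 1 and 2 were lowest and female 3 highest, and 15 genes had some other order.

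Kcnh5, Ddit4l and Pianp had the lowest differences of the named genes and belonged to the 12 genes that were lowest in females 1 and 2 and highest in female 3. Kcnh5 encodes a voltage-gated potassium channel of the ether-à-go-go family. It stood at 0.78, 1.86, 16.1 and 3.85 CPM in LPD female 1, female 2, female 3 and male 4, against 38.5 CPM in LPD female 4 and 35.7, 38.2 and 32.9 CPM in LPD males 1, 2 and 3. The groups did not overlap, with a log2 difference of −3.26. Kcnh5 also differed by sex in the other diets, at 0 CPM in all HFD females and 2.24 to 5.57 CPM in HFD males, and at 6.68 to 16.3 CPM in ND females and 30.5 to 36.4 CPM in ND males. The HFD females had only 13225 to 19404 detected genes and the HFD males 22280 to 23986, and the part of detection in these zeros was not tested. The low-Ins2 group held 3 females of 4, and the part of sex was not tested.

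Ddit4l encodes a relative of the mTORC1 inhibitor Ddit4. It stood at 8.20, 11.5, 55.3 and 20.5 CPM in LPD female 1, female 2, female 3 and male 4, against 109 CPM in LPD female 4 and 103, 115 and 100.4 CPM in LPD males 1, 2 and 3. The other LPD libraries were alike at 107 ± 6.40 CPM, whereas the low-Ins2 libraries averaged 23.9 ± 21.6 CPM (SD, n = 4 each), a log2 difference of −2.52. The HFD libraries lay at 56.9 to 82.9 CPM and the ND libraries at 5.68 to 10.9 CPM. LPD female 1 thus lay inside the ND range, LPD female 2 just above it and LPD female 3 close to the HFD range.

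Pianp encodes a membrane protein that binds a paired immunoglobulin-like receptor. It stood at 4.82, 5.43, 42.5 and 9.37 CPM in LPD female 1, female 2, female 3 and male 4, against 68.7 CPM in LPD female 4 and 52.1, 57.7 and 56.6 CPM in LPD males 1, 2 and 3. Its log2 difference was −2.46. In ND, single libraries ranged between 0.27 and 40.4 CPM with a median of 0.60, and HFD libraries between 0 and 30.8 CPM. Ddit4, the paralog of Ddit4l and a stress-induced inhibitor of mTORC1, differed the other way, at 145, 129, 122 and 143 CPM in LPD female 1, female 2, female 3 and male 4 and 99.2, 112, 91.5 and 115 CPM in LPD female 4 and males 1, 2 and 3.

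**Figure D2:**
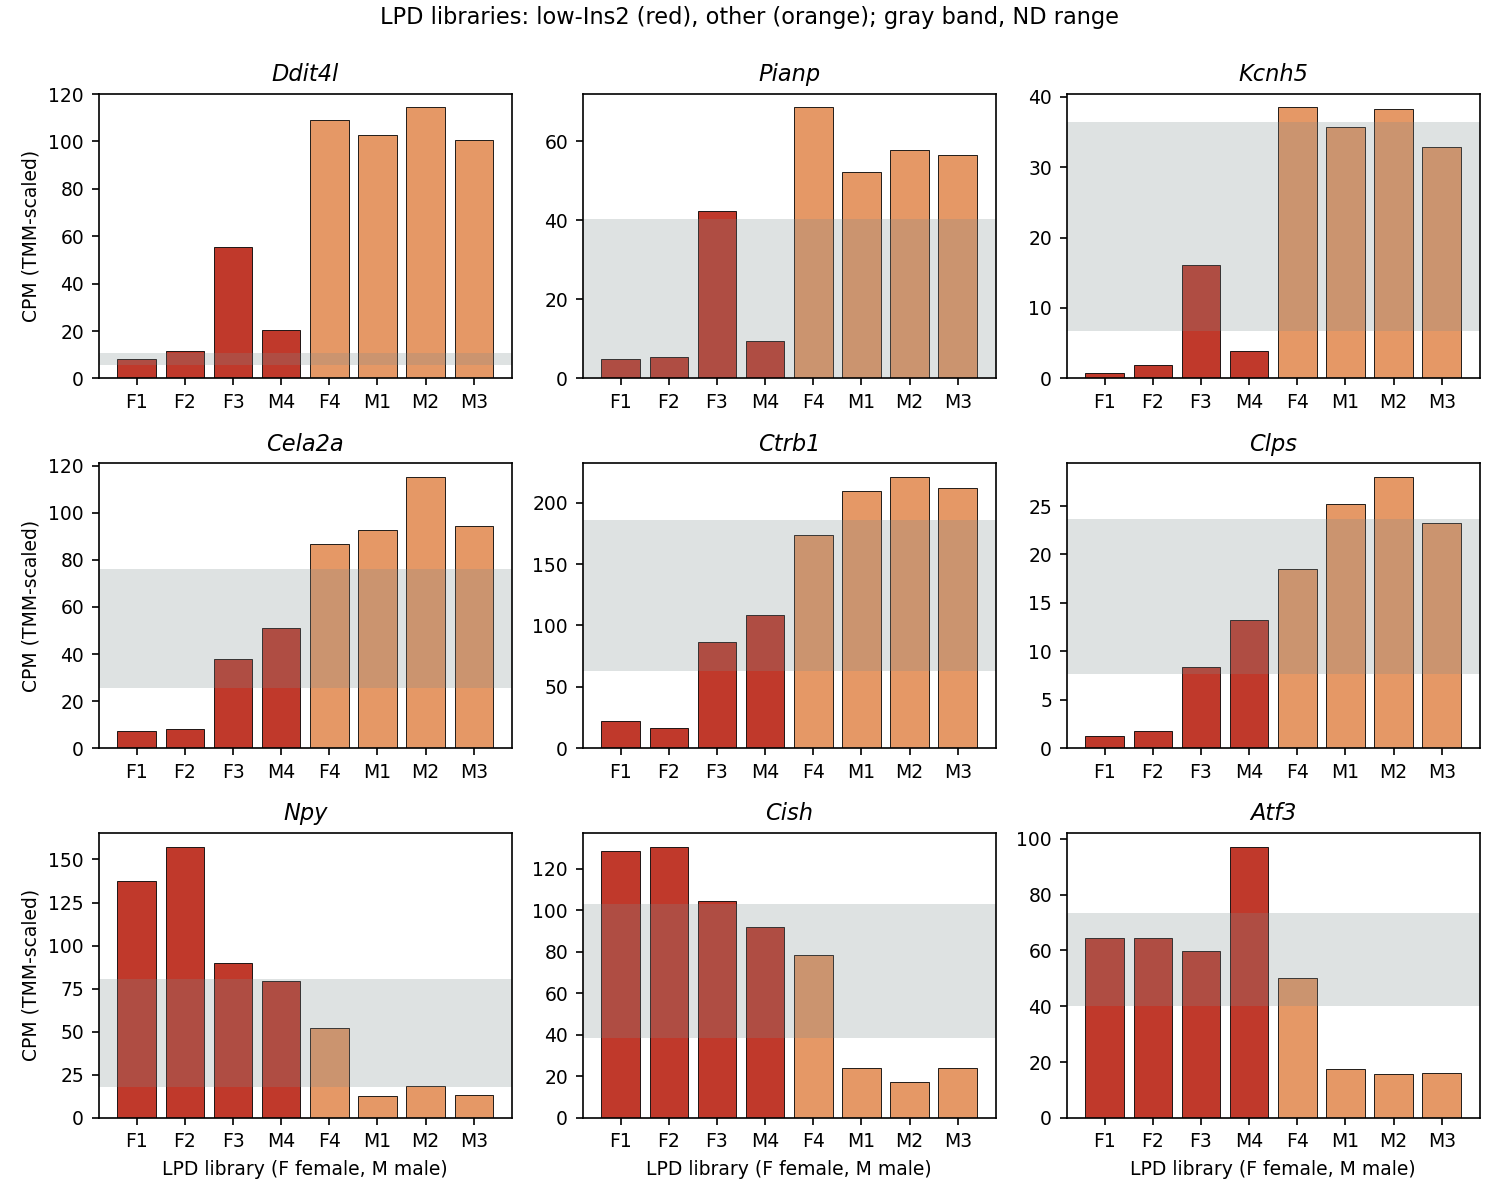
Level of 9 genes in each LPD library, in TMM-scaled CPM, with the low-Ins2 libraries (red) left of the other LPD libraries (orange) and the range of the 8 ND libraries as a gray band. In the top row Ddit4l, Pianp and Kcnh5 are lowest in females 1 and 2 and highest in female 3 of the low-Ins2 libraries. In the middle row the acinar genes Cela2a, Ctrb1 and Clps are lowest in females 1 and 2 and highest in male 4. In the bottom row Npy, Cish and Atf3 are higher in the low-Ins2 libraries, with LPD female 4 the highest of the others.

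Acinar genes encode the digestive enzymes of the exocrine pancreas and serve as markers of acinar cells, which surround the islets. In bulk samples, fewer cells of a type and less RNA per cell cannot be told apart. Of the 33 acinar markers 30 were in the table and 22 passed the level filter. In 20 of these 22 all low-Ins2 values lay below all other LPD values by at least 2-fold, against 0.509% of all genes, and the median log2 difference of the 22 was −2.12. The summed level of the list, in CPM of the library total, was 116 in female 1, 109 in female 2, 507 in female 3 and 801 in male 4, against 1036 in LPD female 4 and 1155, 1240 and 1072 in LPD males 1, 2 and 3. The ND libraries ranged between 315 and 1044 and the HFD libraries between 153 and 586. Females 1 and 2 thus lay below every ND library, and LPD males 1, 2 and 3 above every one.

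The 20 acinar genes shared the same order among the low-Ins2 libraries, with females 1 and 2 lowest and male 4 highest. The median of the 20 genes, as a share of the mean of the other LPD libraries, was 7.70% in female 1, 8.23% in female 2, 43.0% in female 3 and 63.6% in male 4. This order was not that of Ins2, which was lowest in male 4. Cela2a, a pancreatic elastase, stood at 7.21, 8.15, 37.8 and 51.0 CPM in LPD female 1, female 2, female 3 and male 4 and at 86.7, 92.8, 115 and 94.2 CPM in LPD female 4 and males 1, 2 and 3. Ctrb1, a chymotrypsinogen, stood at 22.2, 16.1, 86.3 and 109 CPM in the low-Ins2 libraries in that order and at 174, 209, 221 and 212 CPM in the other LPD libraries. Clps, the cofactor of pancreatic lipase, stood at 1.26, 1.75, 8.33 and 13.3 CPM in the low-Ins2 libraries and at 18.5, 25.2, 28.0 and 23.3 CPM in the other LPD libraries. The part of acinar RNA in the differences of other genes was not tested.

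Markers of cell types other than acinar moved less. Summed endothelial markers stood at 11.97 to 13.9 CPM in the low-Ins2 libraries and 5.59 to 9.82 CPM in the other LPD libraries, and stromal markers at 6.42 to 8.19 and 3.24 to 4.26 CPM. Immune markers summed to 39.5 to 52.9 CPM in the low-Ins2 libraries and 23.4 to 35.7 CPM in the other LPD libraries. These lists stood higher in the low-Ins2 libraries, but few of their genes passed the level filter, 3 of 13 endothelial, 2 of 15 stromal and 3 of 18 immune genes, and the defining markers Ptprc, Pecam1 and Alb were at 0 in at least 1 library of each group. Islet hormones of the α and δ cells were present in all 8 libraries. Gcg ranged between 658 and 880 CPM of the library total in the low-Ins2 libraries and between 398 and 802 in the other LPD libraries. Sst, the δ-cell hormone somatostatin, ranged between 449 and 493.3 CPM and between 338 and 409 CPM in the same groups. The part of these cell types in the results was not tested.

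**Figure D3:**
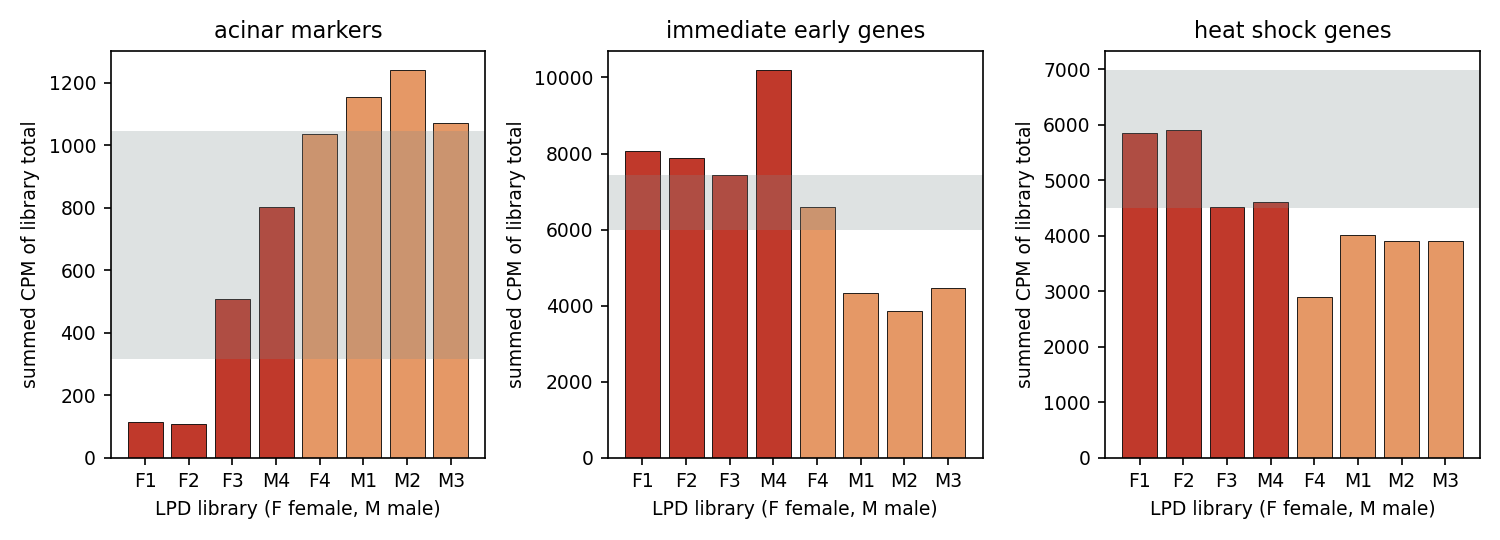
Summed level of the acinar, immediate early and heat shock lists in each LPD library, in CPM of the library total, with the low-Ins2 libraries (red) left of the other LPD libraries (orange) and the range of the 8 ND libraries as a gray band. The acinar sum is 109 to 801 in the low-Ins2 libraries and 1036 to 1240 in the other LPD libraries, and the immediate early and heat shock sums are higher in all low-Ins2 libraries.

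Immediate early genes are transcribed within minutes of depolarization, growth factors or handling stress, and in β cells many follow calcium entry. Of the 26 genes listed 24 passed the level filter. In 16 of the 24 all low-Ins2 values lay above all other LPD values, against 4.66% of all genes. All 24 differences were positive and their median was 0.73 on the log2 scale, whereas 6824 of the 14352 genes had a positive difference. Under the library total scaling the list median was 0.85, so its direction did not depend on that choice. The summed level was 8068, 7895, 7445 and 10193 CPM of the library total in LPD female 1, female 2, female 3 and male 4, against 6587 CPM in LPD female 4 and 4337, 3862 and 4467 CPM in LPD males 1, 2 and 3. The ND libraries ranged between 5981 and 7449. LPD males 1, 2 and 3 thus lay below every ND library, LPD female 4 and female 3 inside the ND range, and the remaining low-Ins2 libraries above it.

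Atf3 is a stress-induced transcription factor of the ATF and CREB family. It stood at 64.4, 64.4, 59.7 and 97.3 CPM in LPD female 1, female 2, female 3 and male 4, against 50.2 CPM in LPD female 4 and 17.6, 15.6 and 15.97 CPM in LPD males 1, 2 and 3. The ND range was 40.0 to 73.6 CPM. Npas4, an activity-dependent factor induced by calcium entry in β cells, stood at 118, 105, 87.6 and 140.5 CPM in the low-Ins2 libraries and at 69.9, 49.5, 44.1 and 45.9 CPM in the other LPD libraries. Egr3 and Egr4, zinc finger factors of the same response, lay at 2.65 to 5.94 and 2.60 to 3.56 CPM in the low-Ins2 libraries and at 0 to 2.37 and 0 to 1.62 CPM in the other LPD libraries. For Atf3 and Npas4, LPD female 4 was the highest of the other LPD libraries.

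Further higher genes named by the size of their difference included signalling regulators. Npy, which encodes neuropeptide Y, stood at 137, 158, 90.1 and 79.7 CPM in LPD female 1, female 2, female 3 and male 4, against 52.1 CPM in LPD female 4 and 12.8, 18.6 and 13.4 CPM in LPD males 1, 2 and 3. Among all LPD libraries the females with low Ins2 had the most Npy. In ND all females lay above all males for Npy, at 23.98 to 80.6 CPM in ND females and 17.9 to 23.6 CPM in ND males.

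Cish encodes a cytokine-induced inhibitor of STAT5 signalling. It stood at 129, 131, 105 and 92.1 CPM in LPD female 1, female 2, female 3 and male 4, against 78.3 CPM in LPD female 4 and 23.9, 17.1 and 23.8 CPM in LPD males 1, 2 and 3. Its log2 difference was 1.91, and LPD female 4 lay closer to the low-Ins2 libraries than to the other LPD males. In ND too, all females lay above all males for Cish, at 65.3 to 103 CPM and 38.6 to 58.4 CPM. Cebpd, a bZIP factor of the acute phase response, stood at 71.1, 83.2, 61.5 and 59.0 CPM in the low-Ins2 libraries and at 37.4, 11.4, 13.5 and 12.1 CPM in the other LPD libraries.

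For Rgs2 and Cdc14a LPD female 4 lay nearer to the other LPD males. Rgs2, a regulator that speeds GTP hydrolysis by Gαq, stood at 79.7, 75.4, 50.4 and 59.3 CPM in LPD female 1, female 2, female 3 and male 4, against 21.1 CPM in LPD female 4 and 11.8, 13.0 and 12.2 CPM in LPD males 1, 2 and 3. Cdc14a, a dual-specificity phosphatase, stood at 25.5, 24.7, 18.4 and 16.9 CPM in the low-Ins2 libraries and at 5.98, 6.06, 6.13 and 6.20 CPM in the other LPD libraries. The other LPD libraries were nearly equal for Cdc14a, and all 4 lay below the ND range of 9.39 to 14.1 CPM while all low-Ins2 libraries lay above it. The HFD range for Cdc14a, 15.0 to 26.2 CPM, held all low-Ins2 values. Myc, the growth-associated factor, lay at 10.9 to 22.1 CPM in the low-Ins2 libraries and 3.39 to 6.91 CPM in the other LPD libraries.

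Some of the largest positive differences are less secure. Rps3a3 and Rps2-ps10, annotated as pseudogenes, resemble ribosomal protein genes and may take reads from them. Rps3a3 lay at 6.86 to 15.5 CPM in the low-Ins2 libraries and 0.081 to 0.65 CPM in the other LPD libraries. It ranged between 0.94 and 27.9 CPM in ND, so that its spread within a diet was as wide as the split. Rab6b, a Golgi GTPase, lay at 6.29 to 19.02 CPM and 0.16 to 1.90 CPM in the same groups. Itih1, a hyaluronan-binding plasma protein, owed its log2 difference of 1.69 largely to LPD female 4, at 0.65 CPM, since LPD males 1, 2 and 3 had 14.9, 16.7 and 18.3 CPM and the low-Ins2 libraries 20.2 to 41.1 CPM. Sparcl1, a matricellular protein, lay at 13.5 to 32.5 CPM in the low-Ins2 libraries and 2.71 to 12.4 CPM in the other LPD libraries.

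Of 17 described genes for prohormone processing and secretory granules, with the insulin genes listed apart, 3 were higher and 4 lower without overlap, beside 4.66% and 4.74% of all described genes. The median log2 difference was −0.09 with TMM and 0.03 with the library total scaling, under which 4 were higher and 1 lower. The list summed to 50892 to 56736 CPM of the library total in the low-Ins2 libraries and 46200 to 50181 in the other LPD libraries. These sums did not overlap on that scale, which moved the median difference over all genes by 0.116, but with TMM scaling they overlapped. Nnat, an imprinted gene whose product aids preproinsulin entry into the ER, stood at 128, 122.7, 88.7 and 76.1 CPM in LPD female 1, female 2, female 3 and male 4, against 49.0, 45.5, 44.7 and 46.9 CPM in LPD female 4 and males 1, 2 and 3. Pcsk1, a convertase that cuts proinsulin, lay at 1367 to 1870 CPM in the low-Ins2 libraries and 1197 to 1314 CPM in the other LPD libraries. Chga, the granule protein chromogranin A, was also higher without overlap, at 16017 to 21051 and 12457 to 15420 CPM. The granule proteins Vgf and Scg2 were lower, with log2 differences of −0.71 and −0.41. Iapp, which encodes the co-secreted amyloid peptide, overlapped between the groups at 8756 to 12250 and 11099 to 13479 CPM.

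Among β-cell transcription factors 4 of 22 described genes were lower and 2 higher without overlap, beside 4.74% and 4.66% of all described genes. With the library total scaling the balance turned, to 1 lower and 5 higher. Pdx1, required for β-cell identity and insulin transcription, stood at 285, 302, 292 and 293 CPM in LPD female 1, female 2, female 3 and male 4, against 337, 382, 380 and 396 CPM in LPD female 4 and males 1, 2 and 3. The low-Ins2 values were close together, and the log2 difference was −0.35 with TMM and −0.23 with the library total scaling. The ND range for Pdx1 was 243 to 348 CPM. All low-Ins2 libraries and LPD female 4 lay inside it, and LPD males 1, 2 and 3 above it. Mafa, an activator of insulin transcription in mature β cells, stood at 1440, 1427, 1482 and 1358 CPM in the low-Ins2 libraries and at 1493, 2046, 1799 and 2260 CPM in the other LPD libraries. LPD female 4 lay near the low-Ins2 libraries for Mafa. The ND range for Mafa was 951 to 1929 CPM. All low-Ins2 libraries, LPD female 4 and LPD male 2 lay inside it, and LPD males 1 and 3 above it. Insm1, an endocrine zinc finger factor, was lower with a log2 difference of −0.43, and Isl1 and Tcf7l2 were higher with 0.41 and 0.45. Nkx6-1, St18 and Myt1, further factors of β-cell identity, overlapped between the groups, with log2 differences of −0.16, 0.01 and 0.21.

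Further genes of β-cell function were close between the groups. The glucose transporter Slc2a2, the maturity marker Ucn3 and the glucose-6-phosphatase subunit G6pc2 overlapped, with log2 differences of −0.05, −0.02 and 0.14. Aldh1a3, a marker of dedifferentiated β cells, was low in all LPD libraries, at 0.30 to 1.03 CPM in the low-Ins2 libraries and 1.17 to 2.08 CPM in the other LPD libraries.

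Heat shock chaperones were higher in the low-Ins2 libraries for part of the list. Of 18 described genes 6 were higher without overlap and 0 lower, beside 4.66% and 4.74% of all described genes, and the median log2 difference was 0.19. With the library total scaling 8 were higher and 0 lower. Summed levels were 5855, 5916, 4513 and 4616 CPM of the library total in LPD female 1, female 2, female 3 and male 4, against 2898 CPM in LPD female 4 and 4017, 3909 and 3903 CPM in LPD males 1, 2 and 3. All other LPD libraries lay below the ND range of 4506 to 6986 and all low-Ins2 libraries inside it. Hsph1, a co-chaperone of HSP70, stood at 408, 457, 372 and 456 CPM in the low-Ins2 libraries and at 247, 262, 246 and 258 CPM in LPD female 4 and males 1, 2 and 3. Hspa8, the constitutive HSP70, stood at 1052, 1026, 778 and 833 CPM in the low-Ins2 libraries and at 521, 645, 726 and 653 CPM in the other LPD libraries. LPD female 4 thus had the lowest Hspa8 of the 8, and its heat shock sum was also the lowest.

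Clock genes differed in both directions. Of 20 described clock genes 6 were higher and 2 lower without overlap, beside 4.66% and 4.74% of all described genes, and 8 higher and 1 lower with the library total scaling. Nr1d1, a repressor in the clock loop, stood at 64.2, 62.6, 44.4 and 49.4 CPM in LPD female 1, female 2, female 3 and male 4, against 22.7, 25.6, 25.2 and 26.8 CPM in LPD female 4 and males 1, 2 and 3. The ND range for Nr1d1 was 38.4 to 52.1 CPM and the HFD range 21.2 to 32.2 CPM. The other LPD libraries thus lay near the HFD values and below all ND values. Dbp, a clock output factor, lay at 22.1 to 36.9 and 10.3 to 17.9 CPM in the low-Ins2 and other LPD libraries, and Per3 at 25.7 to 47.8 and 12.5 to 23.6 CPM. Npas2, a partner of Bmal1, was lower at 1.38 to 5.676 and 5.695 to 8.16 CPM. The labels give no hour of collection, and its part was not tested.

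Over all described genes 4.66% were higher and 4.74% lower without overlap, and further lists are read beside these shares. Of 17 genes of hypoxia and glycolysis 5 were higher and 1 lower, and 8 and 1 with the library total scaling. The list summed to 2831 to 3357 CPM of the library total in the low-Ins2 libraries and 2374 to 2650 in the other LPD libraries. With TMM scaling these sums overlapped. Eno1, the glycolytic enzyme enolase, lay at 90.9 to 116.7 and 75.4 to 83.2 CPM in the low-Ins2 and other LPD libraries, and the glucose transporter gene Slc2a1 was lower at 15.4 to 19.15 and 23.8 to 27.6 CPM. In sterol synthesis 5 of 23 genes were lower and 0 higher without overlap. Of 21 interferon and MHC class I genes 4 were higher and 0 lower, among them the interferon factor Irf1 at 64.8 to 120 and 37.0 to 60.3 CPM in the low-Ins2 and other LPD libraries. Of 25 genes of ER stress and folding 0 were higher and 1 was lower, and of 28 genes of the integrated stress response 3 were higher and 1 lower. Atf4, the main factor of that response, overlapped at 171 to 262 and 185 to 208 CPM. Of 71 genes of oxidative phosphorylation 0 were higher and 2 lower, and of 77 ribosomal protein genes 2 were higher and 1 lower. With the library total scaling the counts were 2 higher and 3 lower in sterol synthesis, 6 and 0 for interferon and MHC class I, 2 and 0 for ER stress and 3 and 1 for the integrated stress response. They were 2 and 0 for oxidative phosphorylation and 2 and 0 for ribosomal protein genes.

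Of 2 described genes within 1 Mb of Ins1 none separated the groups. Of 23 within 1 Mb of Ins2, 2 were higher and 1 lower, which is near the 4.66% and 4.74% over all described genes. The lower one was Th, the tyrosine hydroxylase of catecholamine synthesis, which lies next to Ins2. Th stood at 10.4, 16.3, 21.1 and 11.6 CPM in LPD female 1, female 2, female 3 and male 4, against 33.8 CPM in LPD female 4 and 39.1, 37.6 and 40.6 CPM in LPD males 1, 2 and 3. The ND libraries lay at 15.9 to 29.7 CPM. The higher ones were the phosphatase gene Dusp8, at 23.2 to 34.2 and 11.96 to 18.2 CPM, and the mucin gene Muc5b, at 1.79 to 3.91 and 0 to 1.45 CPM.

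Distance from ND was taken for both LPD groups. Over all described genes the low-Ins2 mean was nearer to the sex-matched ND mean than the other LPD mean in 52.0%. For the 111 higher genes this held in 72 (64.9%), and for the 73 lower genes in 29 (39.7%). The median acinar difference from ND was −1.44 in the low-Ins2 libraries and 0.71 in the other LPD libraries. For immediate early genes it was 0.30 and −0.43, and for heat shock genes −0.25 and −0.55. These distances share the ND libraries and are set side by side as values.

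**Figure D4:**
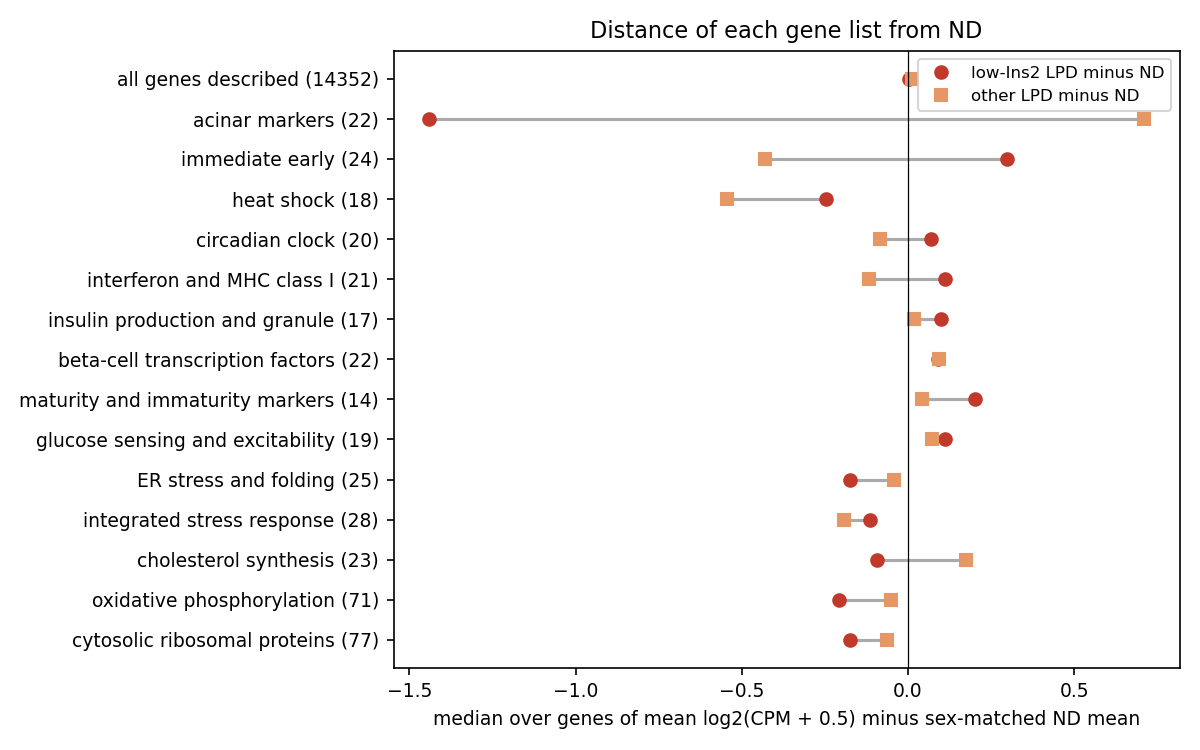
Median over the genes of each list of the mean log2(CPM + 0.5) minus the sex-matched ND mean, for the low-Ins2 libraries (red circles) and the other LPD libraries (orange squares). Numbers in brackets are genes described. Acinar markers lie at −1.44 and 0.71 and immediate early genes at 0.30 and −0.43, on opposite sides of ND, whereas heat shock genes lie at −0.25 and −0.55, both below it.

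LPD against ND was tested with edgeR's quasi-likelihood test over all 24 libraries, with Benjamini-Hochberg adjustment and a threshold of 0.05. This comparison gives how the libraries named LPD differed from those named ND, and it pools low-Ins2 and other libraries. Over both sexes 92 of 19235 genes rose (0.478%) and 68 fell (0.354%). In females 27 rose (0.14%) and 32 fell (0.166%), and in males 11 rose (0.0572%) and 25 fell (0.13%). The effect of LPD differed between the sexes for 1 gene (0.0052% with a higher effect in males and 0% with a lower one), at an unadjusted p below 0.05 for 806. This gene was Rars, the arginyl-tRNA synthetase gene, named after its value was seen, with an adjusted p of 0.0255 in edgeR. None of the 126 named genes passed the threshold for a difference of the LPD effect between the sexes. The lowest adjusted p of that test was 0.121 in edgeR, for Txnip, with a log2 change of 0.68 in females and −0.69 in males. For Rgs2 the log2 change was −2.28 in males (edgeR adjusted p = 0.0287) and −0.15 in females. The low-Ins2 libraries were spread unevenly over the LPD sexes, so this test cannot separate sex from the split. Fits were also run without the 4 low-Ins2 libraries and without the 4 other LPD libraries, each with 4 fewer samples. The first left LPD female 4 as the only LPD female, and the second left LPD male 4 as the only LPD male. The sexes had equal weight, so that this single library counted as much as all LPD libraries of the other sex. Only effect sizes are given from these fits. Leaving out single libraries gave 76 to 353 calls, the most without LPD male 4.

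Ddit4l rose in LPD by 3.20 ± 0.39 on the log2 scale (SE, edgeR adjusted p = 0.000106). Its log2 change was 3.97 without the low-Ins2 libraries and 1.73 without the other LPD libraries. Agt, which encodes angiotensinogen, rose by 1.01 ± 0.10 (edgeR adjusted p = 8.61e-06), and for it the groups overlapped, at 59.2 to 80.6 CPM in the low-Ins2 libraries and 60.9 to 67.3 CPM in the other LPD libraries. The Agt change was 0.95 without the low-Ins2 libraries and 0.98 without the other LPD libraries. Agt thus had similar values in both groups of LPD libraries, whereas the Ddit4l change was larger in the other LPD libraries, a difference that was not tested.

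The heat shock genes also had larger changes without the low-Ins2 libraries. Of 18 tested members 6 fell in LPD, against 0.354% of all genes, and these included Hsph1, Hsp90aa1 and Dnaja1. Hsph1 fell by 0.64 on the log2 scale (edgeR adjusted p = 0.0282). Without the low-Ins2 libraries its log2 change was −1.07 and without the other LPD libraries it was −0.28. Its call was lost in 12 of 24 alternatives, most of them fits without 1 library, and the edgeR adjusted p ranged from 0.000501 to 0.994 over all 24. For Dnaja1 the call was lost in 12 of 24 and the direction turned in 1, and for Hsp90aa1 the call was lost in 2. For Hsp90aa1, a cytosolic HSP90, the log2 change was −0.51 over all LPD libraries (edgeR adjusted p = 0.0146). It was −0.90 without the low-Ins2 libraries and −0.36 without the others. In the list sums too, the low-Ins2 libraries lay above the other LPD libraries and inside the ND range.

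Kcnj5 and Lbp changed in LPD and overlapped between the LPD groups. Kcnj5, a G-protein-gated potassium channel subunit, rose by 1.85 ± 0.30 (edgeR adjusted p = 0.00228), with 13.5, 13.0, 10.3 and 3.91 CPM in LPD female 1, female 2, female 3 and male 4 and 11.2, 20.6, 18.2 and 22.8 CPM in LPD female 4 and males 1, 2 and 3. The Kcnj5 change was 1.95 without the low-Ins2 libraries and 0.82 without the other LPD libraries. In the latter fit the only LPD male was male 4, which had the lowest Kcnj5 of the LPD libraries. Lbp, the lipopolysaccharide-binding protein gene, fell by 6.59 (edgeR adjusted p = 0.000512) and stood at 0 to 0.94 CPM in the low-Ins2 libraries and 0 to 0.68 CPM in the other LPD libraries. The Lbp change was −6.47 without the low-Ins2 libraries and −9.08 without the other LPD libraries. In LPD against ND the median log2 change was −0.15 over the 25 tested acinar markers and 0.03 over the 26 immediate early genes, while the LPD groups lay on opposite sides of ND.

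Whether any gene follows the Ins2 to Ins1 ratio in libraries that the rule did not use was tested in the 16 HFD and ND libraries. The slope of log2 expression on the log2 ratio was fitted within diet and sex by edgeR's quasi-likelihood test over 17826 genes. No gene passed the adjusted threshold (0 genes, 0%), 168 had an unadjusted p below 0.05, and DESeq2 also called 0. The log2 ratio varied little within groups there, with an SD of 0.0494, so that slopes were imprecise. For Ddit4l the slope was −1.53 ± 1.24, for Th −2.92 ± 1.65 and for Kcnh5 2.96 ± 2.59 (log2 units per log2 unit, SE). These data hold no other libraries with so low a ratio.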

How the data were processed

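RNA of Apple-sorted β cells was depleted of rRNA and sequenced as strand-specific libraries. The authors deposited raw counts per gene and FPKM, which are counts divided by gene length and library total. FPKM was used only to recompute the insulin ratio. The submitters' processing notes name cutadapt 2.10, STAR 2.7.8a, HOMER and DESeq2 and build GRCm38.p6, with no role for each. Columns were matched to samples by name. Counts were scaled by TMM and tested in edgeR 4.0.16 with limma 3.58.1 (R 4.3.3) after filterByExpr, with a 0.5 CPM offset for log2 differences. DESeq2 1.42.0 was an alternative. Replicate numbers did not pair LPD with ND libraries (correlations of deviations −0.09 to 0.09). Named genes were the 12 highest and 12 lowest non-overlapping genes of at least 5 CPM, a fixed panel of 20, up to 4 per list, and genes within 1 Mb of the insulin genes. Unnamed predicted genes were left out unless among the 4 largest. The split, the members and the gene lists were chosen with earlier results of these data known. The LPD against ND fit over both sexes, the slope fit and the split were run on simulated counts. Those counts spread less than these data, and the remaining fits were not simulated. Sequences are from GRCm38 with GENCODE vM21. Results for some withheld items are not reported here.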

Additional observations from a re-analysis of the deposited data

Results flagged for a closer look

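In groups of 8 LPD libraries, 7 of 129 gene levels had 1 library far from the others by a gap test that chance alone meets in about 1 of 20 groups. LPD male 2 was the high library for Ins1 (122200 CPM) and Xpnpep1 (51.1 CPM) and the low library for Brsk2 (31.19 CPM). LPD male 4 was the high library for Irf1 (120 CPM) and Krt8 (257.4 CPM) and the low library for Ucn3 (382.1 CPM) and Cd81 (44.53 CPM). The 7 of 129 is near the share that chance alone meets, and all 7 values belonged to these 2 libraries.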

How the results depend on the processing

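The 184 genes apart by at least 2-fold became 89 with a filter of 1 CPM in all 8 libraries and 97 with 5 CPM in 4 of 8. Leaving out 1 LPD library gave 176 (without LPD male 2) to 373 (without LPD female 4). LPD against ND gave 160, 59 and 36 calls over both sexes, in females and in males. DESeq2 gave 463, 360 and 155, and no filter beyond 1 count gave 72 in males. A fit without the 4 HFD female libraries gave 1017 over both sexes, without the 4 low-Ins2 LPD libraries 81, and without the 4 other LPD libraries 74. Leaving out 1 library gave 76 (LPD male 3) to 353 (LPD male 4) over both sexes, 12 (ND female 3) to 149 (ND female 4) in females and 2 (ND male 2) to 177 (LPD male 4) in males. Over both sexes the count also moved by more than 1.5 times without LPD female 3 (83), LPD male 1 (97), ND female 2 (79), ND female 3 (81), ND female 4 (288), ND male 1 (96), ND male 2 (77) and ND male 3 (77). With the replicate number as a replicate block the counts were 119, 42 and 32, and the slope on the insulin ratio had 0 calls. The slope had 0 calls under every alternative run. The causes were not tested.

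Matching samples by library number, which compares the columns named ND with those named HFD, gave 1384 calls over both sexes. Its log2 change had the other sign for Cdc14a (−0.76), Itih1 (1.22), Kcnh5 (7.14), Ddit4l (−3.42), Cela2a (1.59), Cela3b (1.63), Ctrb1 (1.17), Dmbt1 (1.28), Ins1 (−0.48), G6pc2 (−0.36), Aldh1a3 (4.87), Agt (−0.21), Kcnj5 (−1.51), Lbp (2.06), Nnat (−1.30), Vgf (0.73), Dnaja1 (0.22), Ndufa11 (−0.48), mt-Nd6 (0.70), Nr1d1 (0.77), Dbp (0.77), Inpp4b (0.23) and Kcnq1ot1 (0.34). Without the 4 low-Ins2 libraries the change turned for Rps3a3 (−4.82) and Cdc14a (−0.97). Of the other alternatives for single named genes in LPD against ND, 2906 kept direction and side of the threshold, 58 passed it newly and 33 no longer passed. In the split 1995 values moved by less than the spread between libraries and 21 by more, with no change of sign. Genes under about 0.18 CPM in an LPD library rest on 3 counts or fewer.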
